A study of Mus musculus with 3 samples.

Results

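The smooth muscle contractile genes set out below are Acta2, Actg2, Tagln, Cnn1, Myh11, Myl9, Tpm1, Tpm2, Lmod1 and Des. They were chosen by name, through the transcript accession of each array probe. All 10 genes were found, read by 15 probes, among 20577 named genes read by 27234 probes. Tpm1 had 5 probes, Tpm2 had 2, and each of the other 8 genes had 1.

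Smooth muscle cells, and fibroblasts that have become myofibroblasts, shorten with a shared set of proteins. Smooth muscle actin forms the thin filament, tropomyosin, calponin, transgelin and leiomodin sit on or build that filament, smooth muscle myosin pulls on it, and desmin links the contractile units into a network. Many of these genes are driven by serum response factor, which binds a short element called the CArG box together with the coactivators of the myocardin family, and transforming growth factor beta raises their expression in fibroblasts. In the liver the same proteins mark activated stellate cells, portal myofibroblasts and vessel walls.

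RNA from 3 kinds of female mouse cells was hybridised to 1 one-colour array each. The iHep pool held hepatocyte-like cells, made from fibroblasts of SiO2-remodelled spleens that received the lentivirus LV-3TF and were collected 14 days after transduction. The PH pool held primary hepatocytes used fresh after isolation as the positive control. The MF pool held the same kind of spleen fibroblast given the lentivirus LV-NC and grown for 14 days, so iHep and MF share both the SiO2-remodelled spleen and a lentivirus. The labels do not name the 3 factors of LV-3TF. Each pool held 5 samples per the series' design text, so 1 array stands for each group, no spread between animals or cultures can be had, and no test between groups was possible. In pooled RNA, fewer cells of a type and less RNA per cell cannot be told apart.

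A level is given as log2 of the processed spot intensity relative to the 75th percentile of its array, so that a level of 0 is the intensity of that percentile: 3752 on the iHep array, 2081 on the PH array and 544 on the MF array. Of the 20577 genes, 79.5% on iHep, 84.5% on PH and 72.9% on MF were well above background in the scanner software's call. Probes printed 10 times gave a spot SD of 0.10 on iHep, 0.11 on PH and 0.10 on MF on the log2 scale, which is the error of printing and reading within 1 array and not of the cells. The file headers give iHep and PH the same scan time and MF another, so scan and group cannot be told apart in any comparison with MF.

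The labelled cell types were checked against marker lists. Fibroblast markers were above background for 9 of 10 genes on iHep, 10 of 10 on PH and 10 of 10 on MF, and their summed level (log2) was 5.75, 6.39 and 9.26 on those arrays in turn. Hepatocyte markers were above background for 8 of 9 genes on iHep, 9 of 9 on PH and 6 of 9 on MF, with summed levels of 1.24 on iHep, 9.28 on PH and -2.07 on MF. The iHep sum was mostly that of Hnf4a, a hepatocyte transcription factor gene at a level of 1.04, and 7 of the 8 markers compared lay within 2-fold between iHep and MF. The albumin gene Alb stood at -4.75 on iHep, 6.67 on PH and -5.20 on MF, so this defining hepatocyte marker was high on PH only. The PH array also carried pancreatic acinar markers, 8 of 8 above background with a summed level of 8.57, against 2 of 8 and -1.59 on MF. Macrophage markers were above background for 6 of 9 genes on iHep, 9 of 9 on PH and 9 of 9 on MF, with summed levels of 0.58, 6.59 and 6.46 in that order of arrays.

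The stretches of 250 bases before the start sites of Acta2 and Myl9 are shown because they were the only members' promoters with an element of the CArG type. Sequences are from RefSeq, build GRCm38.p6, and 7 of the 10 members had an entry: Acta2, Cnn1, Myl9, Tpm1, Tpm2, Lmod1 and Des. Acta2 lies on the minus strand, and the stretch shown is chr19:34255374-34255623. Myl9 lies on the plus strand, and its stretch is chr2:156775214-156775463. Both are written 5′ to 3′ on the gene's own strand and end at the base before the start site, and capitals mark the elements of the CArG type. The start site is that of the promoter entry, and for both genes it lies inside the annotated gene. Acta2 is annotated up to base 34255585 and Myl9 from base 156775408, so distances from the start hold for the entry's start site only.
Acta2: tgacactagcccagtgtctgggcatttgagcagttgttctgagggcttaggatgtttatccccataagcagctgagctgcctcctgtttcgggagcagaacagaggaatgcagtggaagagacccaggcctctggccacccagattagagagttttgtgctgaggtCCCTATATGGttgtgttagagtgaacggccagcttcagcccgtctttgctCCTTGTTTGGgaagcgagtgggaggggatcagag
Myl9: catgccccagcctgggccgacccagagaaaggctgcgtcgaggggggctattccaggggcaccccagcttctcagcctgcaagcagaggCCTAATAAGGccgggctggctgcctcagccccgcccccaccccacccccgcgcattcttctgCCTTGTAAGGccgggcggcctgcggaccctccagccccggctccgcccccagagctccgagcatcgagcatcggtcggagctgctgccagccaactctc

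Each window searched reached from 250 bases before to 50 bases after the start, on both strands. Only Myl9 held an element with the full CArG pattern, CCTAATAAGG, 161 to 152 bases before the start. With 1 of the 6 central bases allowed to be other than A or T, a looser pattern chosen after the strict search, Myl9 held a further element, CCTTGTAAGG, 99 to 90 bases before the start. Acta2 then held CCCTATATGG, 84 to 75 bases before the start, and CCTTGTTTGG, 34 to 25 bases before it. The strict pattern was in 1 of 7 members' windows and in 535 of all 32851 promoter windows (1.63%). The looser pattern, which includes the strict one, was in 2 of 7 and in 3280 of 32851 (9.98%). Other smooth muscle genes held the strict pattern in 3 of 22 windows and the looser one in 7 of 22. Cytoplasmic and striated relatives of the members held them in 5 of 20 and 7 of 20. Of 892 genes at least 8-fold lower in iHep than in MF, 2.35% held the strict pattern and 10.4% the looser one. The shares were 1.74% and 10.998% among the 13603 genes with a window that were compared between these arrays.

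The other motifs were as common as follows. The TEAD element MCAT, CATTCC, was in 3 of 7 members' windows (Acta2, Tpm1 and Lmod1) and in 14.7% of all windows. The GC box GGGCGG was in 5 of 7 (Myl9, Tpm1, Tpm2, Lmod1 and Des) and in 35.7% of all windows. Among the 13603 genes with a window that were compared between iHep and MF, 58.3% held a GC box. TATAAA was in 0 of 7 members' windows and in 13.6% of all. None of these motifs overlaps a CArG-type element in the members. A match is a run of letters and not a shown binding site, and no match says only that these letters are not in this window.

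In iHep all 10 contractile genes were at least 2-fold lower than in MF, and 7 of them were at least 8-fold lower: Acta2, Actg2, Tagln, Cnn1, Myl9, Tpm2 and Lmod1. Background for these counts comes from the 17165 genes that either array read above background, of which 23.5% passed 2-fold and 6.88% passed 8-fold in the lower direction. The median log2 difference of the 10 genes was -8.67 as measured and -7.52 with the dim readings of Myh11 and Lmod1 held at their bounds, against 0.09 over all 17165 genes. The iHep and MF pools descend from the same kind of fibroblast, so this is the comparison that sets the 3 factors against the control lentivirus. With 1 array on each side, the counts describe these arrays. Tpm1 is counted by its brightest probe, and on its other probes iHep was within 2-fold of MF.

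PH was also lower than MF in all 10 genes by at least 2-fold, and in 9 of them by at least 8-fold, the exception being Myh11. The shares over the 17779 genes compared were 25.4% at least 2-fold lower and 5.46% at least 8-fold lower. The median log2 difference of the 10 genes was -5.62, against 0.12 over all genes. Tpm1 is counted by its brightest probe, and its probe A_55_P2187053 was 3.44-fold higher in PH than in MF, while its other probes were lower. Before scaling, the Myh11 intensity was 24.9 on PH and 14.1 on MF. Both comparisons use the same MF array.

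Between iHep and PH the contractile genes did not move as 1 group. Acta2, Tagln, Cnn1, Myl9 and Lmod1 passed 2-fold in the lower direction. Tpm1, Tpm2 and Des passed it in the higher direction, and Actg2 lay within it. Myh11 was at least 1.92-fold lower, a bound that does not settle whether it passed 2-fold, and it is not counted as lower. The count lower was 4 under quantile normalization, which gives all arrays the same distribution, and with 1 background floor common to all arrays, where Lmod1 left it. It was 6 under normexp, a model-based background correction, where Myh11 joined it and Des left the higher genes. The shares over 17996 genes were 36.0% lower and 23.2% higher, so the 5 lower members of 10 and the 3 higher ones stand near what all genes show. The median log2 difference was -2.75 as measured and -1.40 with bounds, against -0.30 over all genes. The order of levels was MF, then PH, then iHep in 7 of the genes, and MF, then iHep, then PH in Tpm1, Tpm2 and Des.

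**Figure D1:**
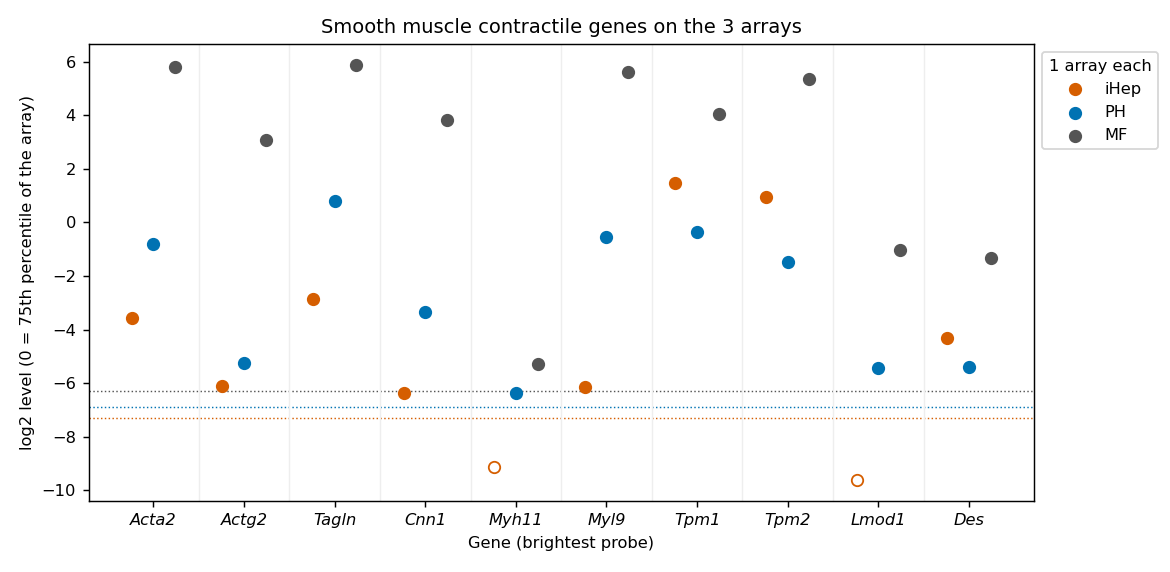
Level of each contractile gene (log2, 0 is the 75th percentile of the array) on the iHep, PH and MF arrays, 1 array each, for the brightest probe of each gene. Open circles are readings not well above background, dotted lines mark the lowest level called above background on each array (-7.32 on iHep, -6.89 on PH and -6.30 on MF), and the MF point is the highest of the 3 in every gene.

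Acta2 encodes the smooth muscle alpha actin that defines myofibroblasts. Its probe, A_52_P420504, was printed 10 times, and the spots ranged from 269 to 366 in intensity on iHep, from 1079 to 1277 on PH and from 28246 to 35202 on MF. The 3 sets of spots did not overlap. The mean levels were -3.59 on iHep, -0.82 on PH and 5.82 on MF, with spot SDs of 0.13, 0.07 and 0.09. Acta2 was 682-fold lower in iHep than in MF, 99.8-fold lower in PH than in MF and 6.83-fold lower in iHep than in PH. Its log2 difference of iHep over MF was -9.41 and came down to -8.74 under quantile normalization.

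Actg2, the gamma actin of visceral smooth muscle, was read by 1 spot of probe A_55_P1963807, at an intensity of 54.9 on iHep, 54.6 on PH and 4612 on MF. The scanner software gave errors of 7.26, 6.58 and 461 to these readings. The levels were -6.10 on iHep, -5.25 on PH and 3.08 on MF, so Actg2 was 579-fold lower in iHep and 323-fold lower in PH than in MF. The log2 difference of iHep over MF was -9.18, and -7.92 under normexp, and that of PH over MF was -8.33, and ranged from -9.10 under quantile normalization to -7.19 under normexp. The iHep and PH readings were near one another: Actg2 was 1.80-fold lower in iHep than in PH, and this direction turned under quantile normalization, where the log2 difference was 0.30. The skeletal muscle actin Acta1 ran beside the smooth muscle actins, with levels of -6.29 on iHep, -5.69 on PH and 3.22 on MF, 727-fold lower in iHep than in MF. Muscle actins are nearly identical as proteins, and whether a probe of 1 actin also reads the transcript of another was not tested.

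**Figure D2:**
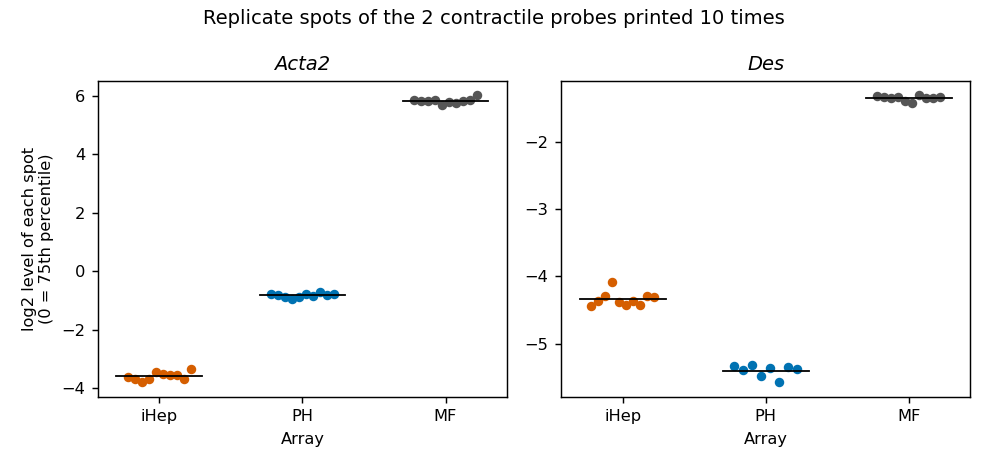
Level of every spot (log2, 0 is the 75th percentile of the array) for Acta2 and Des, whose probes were printed 10 times, on the iHep, PH and MF arrays. Points are spots of 1 array and not biological replicates, the line is their mean, 2 Des spots on PH were left out as outliers by the software, and the spots of the 3 arrays do not overlap for either gene.

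The proteins that decorate the actin filament are led here by Tagln and Cnn1. Tagln, the actin-bundling protein transgelin and an early marker of smooth muscle, was read by A_51_P450527 and had an intensity of 523 on iHep, 3602 on PH and 32317 on MF. Its levels were -2.84 on iHep, 0.79 on PH and 5.89 on MF, so Tagln was 426-fold lower in iHep than in MF, 34.3-fold lower in PH than in MF and 12.4-fold lower in iHep than in PH. Its log2 difference of iHep over MF was -8.73, and -8.12 under quantile normalization. Cnn1 encodes basic calponin, which restrains the myosin motor on actin and appears late in smooth muscle differentiation. Its intensity on probe A_51_P350817 was 45.7 on iHep, 205 on PH and 7709 on MF, and its levels were -6.36, -3.35 and 3.82 on those arrays. Cnn1 was 1162-fold lower in iHep than in MF, 144-fold lower in PH than in MF and 8.06-fold lower in iHep than in PH. The log2 difference of iHep over MF was -10.18, and -8.80 under normexp, and that of iHep over PH was -3.01, and -2.08 under quantile normalization.

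Lmod1 encodes leiomodin 1, which starts new actin filaments in smooth muscle. On probe A_66_P123617 it had an intensity of 4.76 on iHep, 47.4 on PH and 268 on MF, and the iHep reading was not well above background. Lmod1 was at least 79.0-fold lower in iHep than in MF, 21.6-fold lower in PH than in MF and at least 3.65-fold lower in iHep than in PH. Its measured levels were -9.62 on iHep, -5.46 on PH and -1.02 on MF. The bounds depend on the processing: for iHep over MF the log2 difference was -6.30, and -5.28 with the common floor and -4.92 under normexp. For iHep over PH it was -1.87, and the 2-fold call was lost with the common floor (-0.85), under quantile normalization (-0.74) and in the authors' deposited table (-0.55). For PH over MF it was -4.44, and ranged from -5.21 in the authors' deposited table to -3.46 under normexp.

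The 2 tropomyosins, rod proteins that lie along actin and are made in muscle and non-muscle forms by alternative promoters and exons, differed less between iHep and MF than Acta2, Tagln or Cnn1 did. The brighter Tpm2 probe, A_52_P315976, read 7226 on iHep, 740 on PH and 22124 on MF, at levels of 0.95, -1.49 and 5.34. Tpm2 was thus 21.1-fold lower in iHep and 114-fold lower in PH than in MF, and 5.42-fold higher in iHep than in PH. The second Tpm2 probe, A_55_P2121408, gave 45.7-fold lower in iHep and 64.4-fold lower in PH than in MF, and 1.41-fold higher in iHep than in PH. Both Tpm2 probes put MF far above the other arrays, and they differ on how far iHep lies above PH.

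The 5 probes of Tpm1 did not give 1 answer. The brightest, A_55_P2032192, had levels of 1.48 on iHep, -0.37 on PH and 4.06 on MF, and its log2 difference of iHep over MF was -2.59. On the other 4 probes iHep was within 2-fold of MF, namely 1.04-fold lower on A_55_P2187053, lower by a log2 difference of -0.59 on A_55_P2078680, 1.08-fold higher on A_55_P2187038 and 1.33-fold higher on A_55_P2187043. The lower call for Tpm1 in iHep therefore rests on 1 probe of 5. Before scaling, the intensity of the brightest probe was 10433 on iHep and 9090 on MF, so its direction also comes from the scaling of the arrays.

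The Tpm1 probes also divided PH from the cultured cells. The brightest was 21.5-fold lower in PH than in MF, and 3 others were 2.90-fold, 11.4-fold and 10.3-fold lower (A_55_P2078680, A_55_P2187038 and A_55_P2187043). The fifth, A_55_P2187053, ran the other way, at levels of -0.39 on iHep, 1.44 on PH and -0.34 on MF, which is 3.44-fold higher in PH than in MF and 3.57-fold lower in iHep than in PH. Over all genes with several probes, probes of 1 gene differed with a pooled SD of 0.85 in the log2 difference of iHep over MF. Which transcripts each Tpm1 probe reads was not tested.

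**Figure D3:**
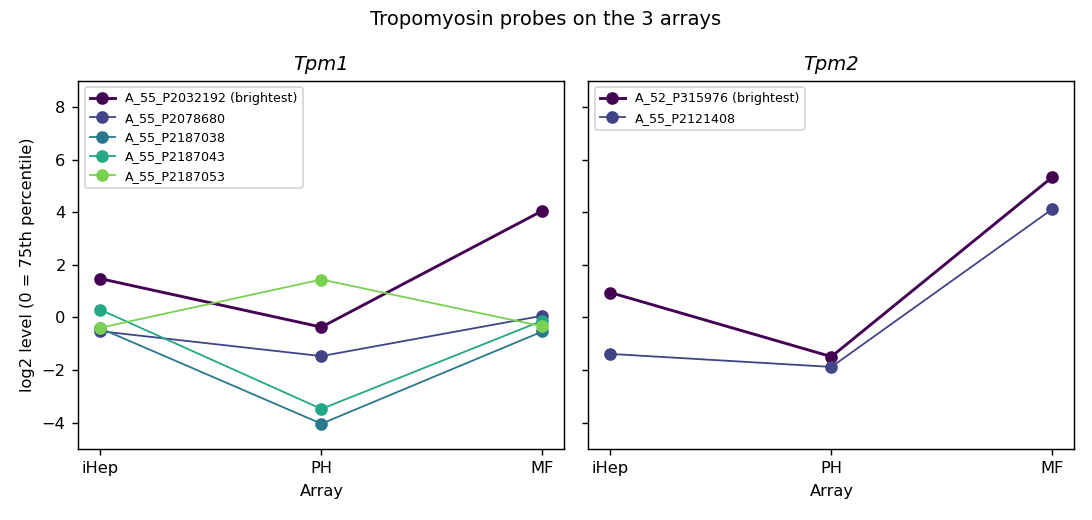
Level (log2, 0 is the 75th percentile of the array) of the 5 Tpm1 probes and the 2 Tpm2 probes on the iHep, PH and MF arrays, lines joining the readings of 1 probe. The brightest Tpm1 probe is highest on MF at 4.06, the other 4 lie near 0 on MF, and A_55_P2187053 alone is highest on PH, while both Tpm2 probes are highest on MF.

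Myl9 and Myh11 encode parts of the myosin motor. Myl9 encodes the regulatory light chain whose phosphorylation switches smooth muscle and non-muscle myosin on. Its intensity on probe A_51_P308298 was 52.9 on iHep, 1433 on PH and 26528 on MF, with software errors of 8.24, 143 and 2653, and its levels were -6.15, -0.54 and 5.61 on those arrays. Myl9 was 3457-fold lower in iHep than in MF, a log2 difference of -11.76 that was -10.51 under normexp, and it ranked 11 from the lowest among the 17165 genes compared. It was 70.8-fold lower in PH than in MF and 48.8-fold lower in iHep than in PH, the widest measured gap between those 2 arrays among the 10 genes, at a log2 difference of -5.61 that was -4.42 under normexp. Of the other members, Cnn1 ranked 28, Acta2 58, Actg2 65 and Tagln 93 in iHep over MF.

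Myh11, the smooth muscle myosin heavy chain and a marker of mature smooth muscle, was near or below the background call on all 3 arrays. Its intensity on probe A_55_P1988531 was 6.75 on iHep, not well above background, 24.9 on PH and 14.1 on MF. The levels were -9.12 on iHep, -6.39 on PH and -5.27 on MF, and Myh11 was at least 4.14-fold lower in iHep than in MF and 2.16-fold lower in PH than in MF. With the common background floor the log2 bound for iHep over MF was -1.03, against -2.05. The unscaled PH intensity lay above that of MF, so the direction of PH over MF comes from the scaling. The unscaled iHep reading lay below that of MF. The lowest intensity called above background on iHep, 23.4, lay above the MF reading, so the direction of the iHep bound also comes from the scaling. The difference between iHep and PH, at least 1.92-fold lower in iHep, was 0 under quantile normalization.

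Des encodes desmin, the intermediate filament protein of muscle and of hepatic stellate cells. Its probe, A_51_P335969, was printed 10 times, and its spots ranged from 173 to 222 on iHep, from 43.5 to 51.9 on PH over the 8 spots kept, and from 204 to 221 on MF. On this intensity scale the iHep and MF spots overlap, and they separate once each array is set to its 75th percentile, at levels of -4.34 on iHep, -5.40 on PH and -1.34 on MF. Des was 7.96-fold lower in iHep than in MF, 16.7-fold lower in PH than in MF and 2.10-fold higher in iHep than in PH. The gap between iHep and PH was below 2-fold under the normexp background correction, at a log2 difference of 0.35, and reached 2.19 under quantile normalization. The log2 difference of PH over MF was -4.06, and ranged from -4.84 in the authors' deposited table to -3.11 under normexp.

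Other genes of smooth muscle were also lower in iHep, by less in the middle of the list. Of 22 such genes compared, 16 were at least 2-fold lower in iHep than in MF and 2 higher, where 23.5% of all genes were lower and 19.8% higher, with a median log2 difference of -1.86. Among those lower were the integrin gene Itga8, at least 235-fold, the LIM protein gene Fhl1, at least 72.2-fold, the amine oxidase gene Aoc3, 69.4-fold, and the adhesion protein vinculin gene Vcl, 28.5-fold. Sncg, encoding gamma synuclein, was 3.34-fold higher in iHep than in MF, and Hspb6, a small heat shock protein gene, 2.78-fold higher. Mylk, the kinase that phosphorylates Myl9's product, was 3.25-fold lower in iHep than in MF, at levels of -5.67 on iHep, -3.91 on PH and -3.97 on MF. In PH, 13 of 24 were at least 2-fold lower than in MF and 2 higher, where 25.4% of all genes were lower and 30.8% higher, with a median of -2.04 as measured and -1.81 with bounds.

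The cytoplasmic and striated relatives of the members had a median difference well below that of the members, although Acta1 and Myh10 reached the size of Acta2. Of 20 compared, 13 were at least 2-fold lower in iHep than in MF and 1 higher, with a median log2 difference of -1.78, and the same list in PH gave 13 lower and 3 higher, with a median of -1.78. The shares of all genes were 23.5% lower and 19.8% higher in iHep over MF, and 25.4% lower and 30.8% higher in PH over MF. The cytoplasmic actins Actb and Actg1 were 3.44-fold and 4.53-fold lower in iHep than in MF, and the 5 probes of Actg1 spanned log2 differences from -2.18 to -0.73. Beside Tagln, its relative Tagln2 was 1.09-fold lower on its brighter probe and at a log2 difference of 0.06 on the other, and beside Cnn1, Cnn2 and Cnn3 were 3.41-fold and 2.81-fold lower. Beside the tropomyosins above, Tpm3 was 1.71-fold and Tpm4 4.66-fold lower in iHep, and the 3 probes of Tpm3 spanned log2 differences from -2.14 to -0.77. Beside Myl9, the light chain gene Myl6 was 2.42-fold lower, and the light chain genes Myl12a and Myl6b, at 1.998-fold and 1.20-fold lower, did not pass 2-fold.

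Non-muscle myosin heavy chains did not move alike. Myh9 was 4.66-fold lower in iHep than in MF. Myh10 was at least 618-fold lower, at levels of -7.89 on iHep (not well above background), -1.76 on PH and 1.95 on MF. Myh14 was 2.10-fold higher in iHep than in MF on its brighter probe, and lower on its other probe, with a log2 difference of -2.23. Tmod1, which caps actin filaments and is related to Lmod1, was at least 14.0-fold lower in iHep than in MF.

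Of 21 compared genes that control the contractile set, 14 lay within 2-fold between iHep and MF, as did 9723 of all 17165 genes. In iHep 6 of the 21 passed 2-fold in the lower direction and 1 in the higher, against 23.5% and 19.8% of all genes. The count lower thus stands near what all genes show. The median log2 difference was -0.39. In PH over MF 7 of 22 were lower and 4 higher, against 25.4% and 30.8% of all genes, with a median of -0.45. Srf, the serum response factor gene, had levels of 2.57 on iHep, 1.46 on PH and 1.90 on MF, and its 2 probes differed between iHep and MF by log2 values from -0.20 to 0.67. The gene Mrtfa, a coactivator of that factor, was 1.23-fold higher in iHep than in MF and 2.78-fold lower in PH than in MF, and both values are of its brightest probe. Myocd, encoding myocardin, was not well above background on iHep or MF and had a level of -5.43 on PH. Tgfbr2, a receptor of transforming growth factor beta, was 4.43-fold lower in iHep than in MF and its ligand gene Tgfb1 2.85-fold lower. The factor genes Mef2c and Elk1 were 4.20-fold and 3.12-fold lower, the second probe of Elk1 giving a log2 difference of -0.44, and Mef2a was 2.62-fold higher.

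**Figure D4:**
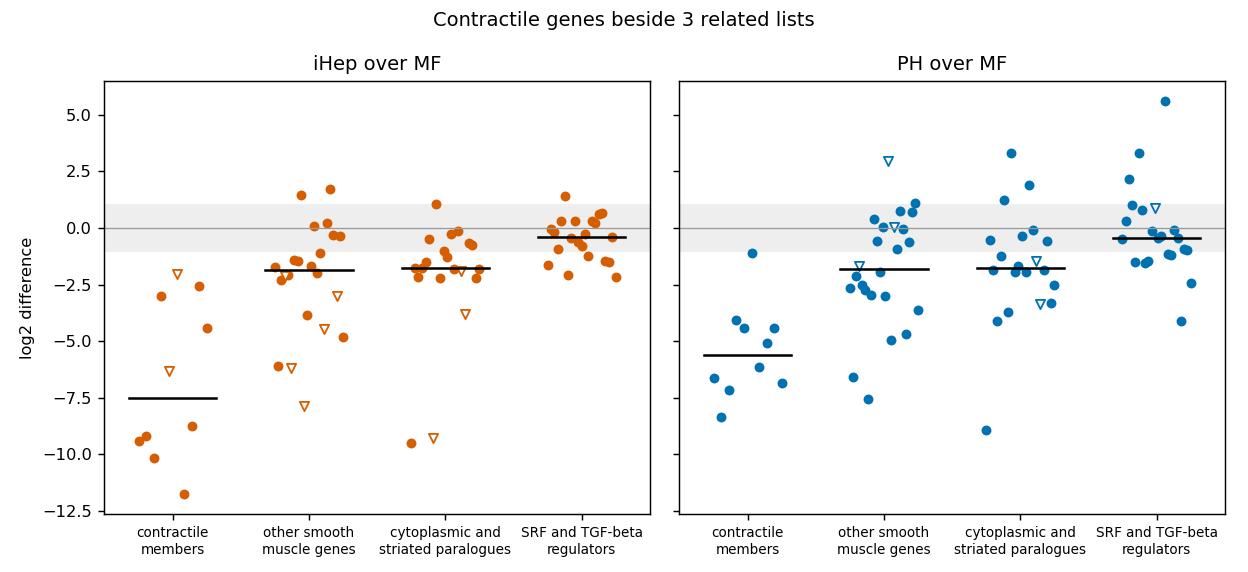
Log2 difference of each gene in the contractile set and in 3 related lists, iHep over MF on the left and PH over MF on the right. Open triangles are bounds on the size of a difference where 1 reading was not well above background, lines are list medians with bounds held, and the grey band spans 2-fold in either direction; the contractile genes have a median of -7.52 in iHep over MF and -5.62 in PH over MF.

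Markers of other cells that could bring contractile transcripts were set beside these values. The 14 pericyte and vascular smooth muscle markers were above background for 12 genes on iHep, 14 on PH and 10 on MF. Their summed levels were 5.37, 6.02 and 5.73. The largest single level was that of Mcam on iHep (4.28) and PH (5.68), and of Pdgfrb on MF (5.02). In PH over MF 9 of 14 were at least 2-fold higher and 3 lower, where 30.8% and 25.4% of all genes were. The 3 lower were Pdgfrb (40.5-fold), Ndufa4l2 (13.8-fold) and Notch3 (10.6-fold). The pericyte marker Rgs5, among those higher, was not well above background on iHep or MF and stood at -1.73 on PH. Hepatic stellate markers were above background for 7 of 10 genes on iHep, 10 on PH and 7 on MF, with summed levels of 0.93, 4.45 and 5.69. Of these 10, 6 were at least 2-fold higher and 2 lower in PH over MF. The defining stellate gene Lrat was at 0.02 on PH and not well above background on iHep or MF. Endothelial markers were above background for 5 of 10 genes on iHep, 10 on PH and 7 on MF, with summed levels of 0.54, 5.35 and 0.97. The part of these cells in the PH readings of Acta2, Tagln and Myl9 was not tested.

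Fibroblast collagens were lower in iHep together with the contractile genes. All 10 fibroblast markers passed 2-fold in the lower direction in iHep over MF, where 23.5% of all genes did. Their median log2 difference was -3.88 as measured and -3.75 with bounds, and the contractile median of -8.67 is the larger in size. A drop of that size was not particular to the contractile genes. Macrophage markers were at least 2-fold lower in 9 of 9 and at least 8-fold lower in 8, where 6.88% of all genes passed 8-fold. Their median was -9.91 as measured and -7.64 with bounds, against -8.67 and -7.52 for the contractile genes. Mesothelial markers were above background for 3 of 7 genes on iHep, 7 on PH and 7 on MF, with summed levels of 3.83, 3.15 and 3.07. The iHep sum was nearly that of Msln alone, at 3.81, and 6 of the 7 mesothelial markers were at least 8-fold lower in iHep than in MF, with a median log2 difference of -7.26 as measured and -5.73 with bounds. Striated muscle markers were above background for 14 of 17 genes on iHep, 15 on PH and 14 on MF, with summed levels of 2.13, 0.49 and 1.32, and the iHep sum was mostly that of Tnnt2, at 1.68. Whether the share of fibroblasts in each pool sets the contractile levels was not tested.

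The genes whose 3 levels lay nearest to those of the contractile set were sought among 13920 genes above background on all arrays, by Euclidean distance on the log2 scale over the 3 arrays. The set's medians were -5.22 on iHep, -2.42 on PH and 3.94 on MF. Nearest to them were Svep1 at a distance of 0.59, Cck at 0.70, Cd248 at 0.73, Fibin at 0.76 and Gpr153 at 0.99. Nearest to Acta2 alone was Thbs1, encoding the matrix protein thrombospondin 1, at a distance of 0.71 and levels of -3.46 on iHep, -0.20 on PH and 5.48 on MF. Trnp1 at 1.85, Fstl1 at 2.12 and Thbs2 at 2.14 were also among the nearest. With 3 arrays such likeness is a description.

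**Figure D5:**
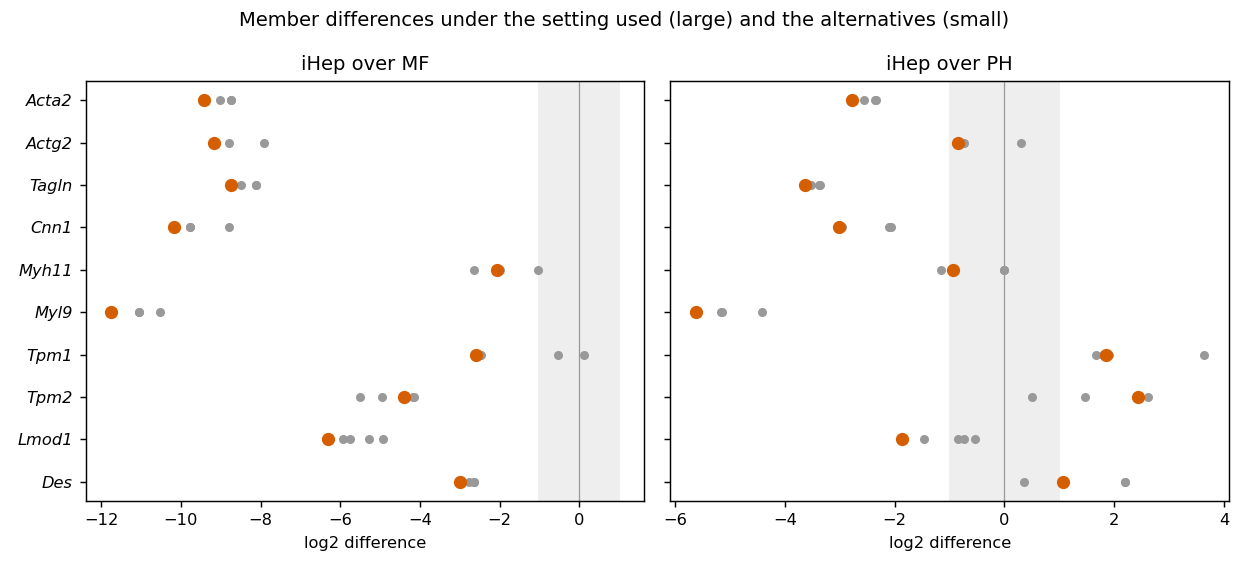
Log2 difference of each contractile gene, iHep over MF on the left and iHep over PH on the right, under the processing described (large points) and under the alternatives (small points), with a grey band spanning 2-fold in either direction. All genes but Tpm1 stay on the lower side in iHep over MF, where Tpm1 reaches 0.12. In iHep over PH, Actg2 lies at -0.84 and Myh11 at a bound of -0.94. Across the alternatives Actg2 runs from -0.85 to 0.30 and Myh11 from -1.16 to 0.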

How the data were processed

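Each pool was measured on 1 array, grouped by its title. The deposited scanner files hold the authors' spot intensity values, background-subtracted and not normalized between arrays, per the file headers, which name Agilent Feature Extraction 11.0.1.1; the submitters' processing notes name version 9.1. The authors' deposited value table holds log2 values of unstated scale and centring for 7 of the 10 genes and served as an alternative. Its columns had medians of 7.02 on iHep, 7.08 on PH and 7.03 on MF and correlated with the scanner values at 0.998, 0.994 and 0.997. Differences between its columns correlated with the scanner's at 0.981 or above, which settles their direction. Its exact normalization stays unknown.

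Control spots and outlier spots (230 on iHep, 383 on PH and 190 on MF of 43020) were left out. None was saturated. The spots of a probe were averaged, and log2 intensity was set to the 75th percentile of each array. Probes were named by transcript accession through a RefSeq table of GRCm38.p6 (27234 of 39429 probes, 69.1%), and the probe with the highest mean level stood for a gene. Where a reading was not well above background, the fold is a bound against the higher of that reading and the array's lowest level above background. Scripts were tested on simulated data. Alternatives covered background correction (normexp, offset 50, in limma 3.58.1 under R 4.3.3, on median signals), scaling, filters and the probe of a gene. All probes of the 10 genes are named, and of each related list up to 4 genes with the largest difference in its main direction and up to 2 in the other. Beside them stand relatives of a member and genes chosen after their values were seen (Mylk, Srf, Mrtfa, Myocd). Single markers of the cell type lists, such as Alb, Hnf4a, Rgs5, Lrat, Msln and Tnnt2, were named under no fixed rule. Of the genes nearest in level to the set and to Acta2, 1 is not reported here. The members, lists and tests were chosen with earlier results of these data known.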

Additional observations from a re-analysis of the deposited data

How the results depend on the processing

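The number of contractile genes at least 2-fold lower stayed at 10 of 10 in iHep over MF and in PH over MF under normexp background correction, quantile normalization and scaling to a median, and Tpm1 left the count in iHep over MF with the mean or the dimmest probe of a gene, where its log2 difference was -0.54 and 0.12, the second a turn of direction. The median in iHep over MF was -7.52 with dim readings at their bounds, -6.56 after normexp, -8.12 in the authors' table, -8.11 under quantile normalization, -8.96 with the 8 genes above background on all arrays and -7.01 with a common background floor. In PH over MF it was -5.21 in the authors' table and -6.39 with those 8 genes. In iHep over PH it was -1.40 with bounds, -1.45 after normexp, -2.13 in the authors' table, -1.72 under quantile normalization, -1.81 with those 8 genes and -0.85 with the common floor, and 3 genes were at least 8-fold lower. Bounds and the common floor were chosen after seeing the data.

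Background correction and normalization moved all genes too, whereas scaling to a median moved them little: the share higher among genes past 2-fold in iHep over MF was 45.7%, 46.5% after scaling to a median and 27.6% under normexp, which put the median of all genes at -0.64. In PH over MF it was 54.9%, and 38.9% under normexp, 43.2% with quantiles made equal and 42.0% in the authors' table. In iHep over PH it was 39.2%, and 54.9% under quantile normalization and 55.8% in the authors' table, where 3205 genes of 13070 were lower, against 6477 of 17996. Higher genes past 2-fold in iHep over MF numbered 2002 under normexp against 3404, and in PH over MF 3184 against 5484 (2972 of 12914 in the authors' table). Signal over background limits Myh11 and Lmod1 on iHep. No paired analysis was possible because each group had 1 array and the labels carry no replicate numbers.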
